A study of Drosophila melanogaster with 8 samples.

Results

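The vacuolar proton ATPase (V-ATPase) genes were taken as all genes whose symbol begins with Vha in the deposited gene table, which gave 33 of 17558 genes. They were described in bulk mRNA-seq of Drosophila melanogaster ring glands, the larval endocrine organ that joins the prothoracic gland, the corpus allatum and the corpus cardiacum. There were 4 libraries labelled kdm5[140], a null allele of the single fly gene for the histone demethylase KDM5, collected about 7 days after egg laying, and 4 wild-type libraries of the genotype w[1118], collected about 5 days after egg laying. Larvae of both genotypes were untreated, were raised at the same temperature and were taken as wandering larvae of the third instar, and each library held 80 pooled ring glands, with 50% of the animals male. An effect of the genotype and an effect of age cannot be told apart here, and the allele was present in every tissue of the larva. The labels do not say whether pools came from separate crosses, so p-values measure only the spread between these pools.

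The V-ATPase is a rotary pump that uses ATP to move protons into lysosomes, endosomes, secretory vesicles and the Golgi, and in some epithelia across the plasma membrane. Its cytosolic V1 sector is built from subunits A to H, of which A and B form the ring that hydrolyses ATP, D and F the central shaft, C, E and G the peripheral stalks and H a regulator. Its membrane V0 sector carries the protons on a ring of c and c" subunits past the half-channels of subunit a, with d between the ring and the shaft and e as a small membrane subunit. In flies most subunits with several genes have 1 gene used widely and others used in few tissues.

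The targeted gene, listed under its older symbol lid, had 200, 193, 194 and 195 CPM (counts scaled to library size with the TMM method of edgeR) in the libraries labelled kdm5[140], against 172, 144, 144 and 155 CPM in wild-type libraries. The groups did not overlap, and lid was higher in the libraries labelled kdm5[140] (log2 fold change 0.35, standard error 0.07, FDR = 0.00437). The FDR is from the quasi-likelihood test of edgeR with Benjamini-Hochberg adjustment over all genes tested, with a threshold of 0.01. This goes against a simple reading of the label as loss of the transcript. The extent of the lesion is not given in the sources used here, so the summed gene count does not check it, and every direction below rests on the labels alone. Libraries held 17131110 to 18816043 counts for kdm5[140] and 17163795 to 19494692 for wild type. Replicate 4 of kdm5[140] had a count in 13067 genes, against 11561 to 12052 in the other 7 libraries. All 5 prothoracic gland markers, which are enzymes of ecdysone synthesis, were detected. Their summed level was 29077 to 37639 CPM in kdm5[140] and 40410 to 43410 CPM in wild type, with spok lower (log2 fold change -0.83, FDR = 0.000357), dib higher (0.56, FDR = 0.0044) and the other 3 not past the threshold. Of the markers of the corpus allatum, corpus cardiacum, glia, fat body, muscle, hemocytes, trachea and salivary gland, Gasp of the trachea was the only one past it (log2 fold change -0.45, FDR = 0.0068). The summed fat body marker level was 1056 to 5574 CPM in kdm5[140] and 789 to 2309 CPM in wild type. Of these 5 markers 4 had positive log2 fold changes. Lsp1alpha went the other way (-2.62, FDR = 0.124), with means of 15.4 CPM in kdm5[140] and 94.9 CPM in wild type. Fewer cells of a type and less RNA per cell cannot be told apart in bulk tissue.

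Log2 fold changes of the tested V-ATPase genes lay between -0.43 and 0.28. Of the 33 genes, 19 passed the filter on low counts and were tested, and 2 of these were lower in kdm5[140] at an FDR under 0.01: Vha100-1, a gene for subunit a, and Vha13, the gene for subunit G. Over all 9317 genes tested 9.62% were lower, so 2 of 19 is near the background. None of the 19 was higher by edgeR, where 7.91% of all genes tested were higher; 5 of the 19 had an unadjusted p under 0.05 in either direction, against 42.5% of all genes tested. DESeq2, which keeps more poorly expressed genes, gave an FDR for 24 of the 33 and called 2 of these higher, Vha100-2 and Vha16-5, where it called 10.4% of its 11170 genes higher. At an FDR under 0.05, 3 of the 19 passed in either direction, against 30.9% of all genes tested. The median log2 fold change of the 19 genes was -0.09 (-0.04 without kdm5[140] replicate 1, and -0.05 with an offset for gene length), and that of all genes tested was 0.02. In 3 genes all kdm5[140] libraries lay below all wild-type libraries, against 17.6% of all genes tested, and in 1 gene they lay above, against 15.6%. The V1 sector had 9 tested genes with 1 lower and a median of -0.05, the V0 sector 8 tested genes with 1 lower and a median of -0.10, and the 2 accessory genes were not called.

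**Figure D1:**
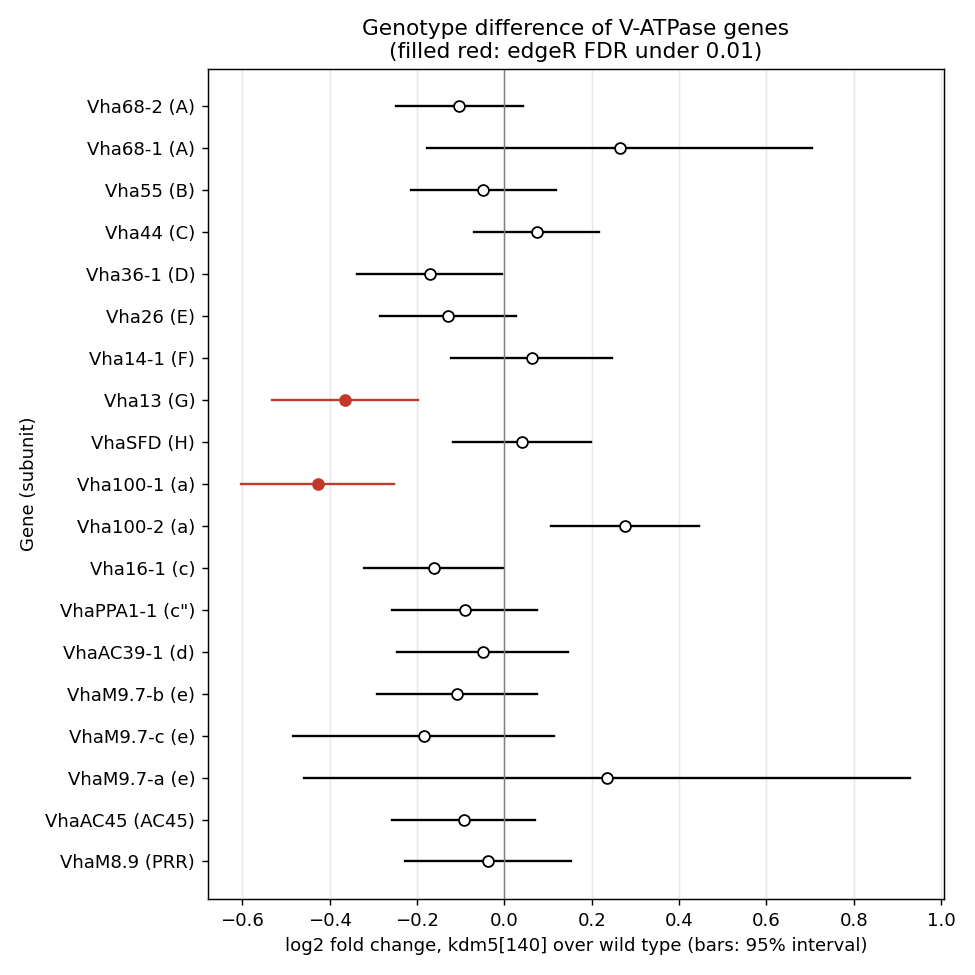
Log2 fold change (kdm5[140] over wild type) of the 19 tested V-ATPase genes on the x axis, with 95% intervals as bars and filled red points for the 2 genes with an FDR under 0.01. Vha100-1 and Vha13 lie at -0.43 and -0.36, and the other 17 genes lie between -0.18 and 0.28.

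The 17 genes that were not called had log2 fold changes from -0.18 to 0.28, of which 11 were negative and 6 positive, and the smallest FDR among them was 0.0136. For 11 of the 17 the whole 95% interval of the log2 fold change lay within 0.3 of 0, and the widest bounds among the rest were -0.48 for VhaM9.7-c and 0.93 for VhaM9.7-a, both genes for subunit e. Standard errors over the 19 genes ran from 0.06 to 0.28.

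Subunit a holds the half-channels through which protons enter and leave the ring, and its paralogues direct the pump to different membranes. Vha100-1, at chromosome arm 3R from 29131193 to 29137980 on the plus strand of dm6, encodes the form best known from fly neurons, where it acts at synapses. It had 177, 153, 149 and 162 CPM in kdm5[140] libraries, against 233, 208, 212 and 210 CPM in wild-type libraries. Every kdm5[140] library was below every wild-type library, with means of 160 ± 12.5 CPM and 216 ± 11.5 CPM (SD, n = 4 each). Vha100-1 fell by 0.43 on the log2 scale (standard error 0.07, edgeR FDR = 0.00185), which is 0.744 of the wild-type level, and it was lower at that threshold with each of the 8 libraries left out in turn. Its exons overlap those of CG14512, named Alg13 in the reference, by 11 bases on the opposite strand, and the strand setting of the counting is not stated. CG14512 had 26 to 41 counts per kdm5[140] library and 84 to 106 per wild-type library, beside 2469 to 3470 and 3486 to 4241 counts of Vha100-1.

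Neuron markers were read beside this gene because of its known use in neurons. Of 8 neuron markers 7 had positive log2 fold changes, where 4896 of all 9317 genes tested did. Only elav, a pan-neuronal RNA-binding protein, was higher past the threshold, where 7.91% of all genes tested were. It had 99.3 ± 8.28 CPM in kdm5[140] and 75.7 ± 5.56 CPM in wild type (SD, n = 4 each, log2 fold change 0.39, FDR = 0.00495). The summed level of the 8 markers was 239 to 361 CPM in kdm5[140] and 186 to 275 CPM in wild type, and no marker was at 0. Their part in the values of Vha100-1, and that of the prothoracic gland markers, was not tested.

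Vha100-2, on 3R from 18390323 to 18399169 on the minus strand, is the other subunit a gene with substantial counts. It had 79.8, 81.2, 77.6 and 89.2 CPM in kdm5[140] libraries, against 62.5, 70.5, 65.9 and 71.6 CPM in wild-type libraries. All kdm5[140] libraries were above all wild-type libraries, yet the log2 fold change of 0.28 (standard error 0.07) did not pass the threshold with edgeR (FDR = 0.0136). It did with DESeq2 (FDR = 0.00333).

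The balance of both genes was then compared per library as the ratio of their levels in CPM per kilobase of the gene length in the table. Vha100-2 stood at 46.0%, 54.2%, 53.1% and 56.1% of the level of Vha100-1 in kdm5[140] libraries, against 27.4%, 34.7%, 31.6% and 34.8% in wild-type libraries. The ratios did not overlap, and the log2 ratio was higher by 0.71 in kdm5[140] (two-sided exact permutation test over 70 arrangements, p = 0.0286, the smallest that 4 against 4 libraries can give). Both genes were already apart between genotypes, in opposite directions. The separation of the ratio and its p follow from that and add no further evidence. Adjusted over the 4 paralogue ratios compared, p was 0.114, above 0.05. With 4 libraries per genotype 1 ratio alone cannot adjust below this, so missing 0.05 says nothing about this ratio. Vha100-1 supplied 65.4 ± 2.13% of the summed subunit a level in kdm5[140] and 75.6 ± 1.96% in wild type (SD, n = 4 each). The summed level itself was 74.6 ± 4.31 CPM per kilobase in kdm5[140] and 86.7 ± 2.48 in wild type.

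**Figure D2:**
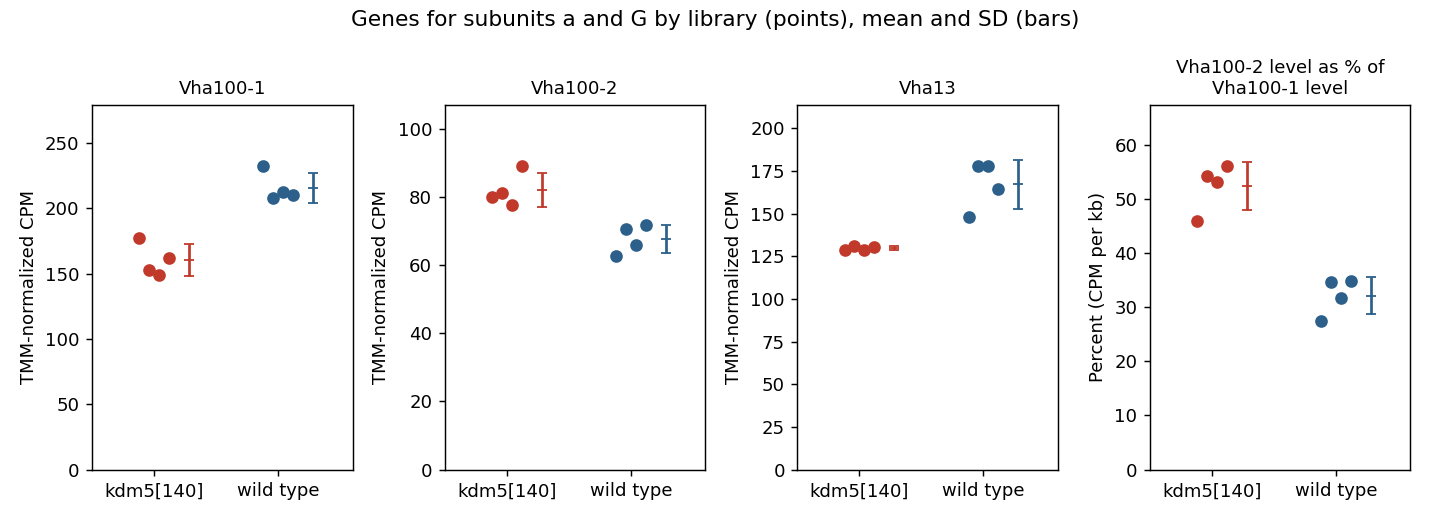
TMM-normalized CPM of Vha100-1, Vha100-2 and Vha13, and the level of Vha100-2 as a percentage of that of Vha100-1 in CPM per kilobase, with 1 point per library and the mean with its SD beside the points. Vha100-1 and Vha13 are lower in all kdm5[140] libraries and Vha100-2 higher, and the ratio averages 52.3% in kdm5[140] and 32.1% in wild type.

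Vha13 encodes subunit G, part of the peripheral stalks that hold the V1 sector still while the shaft turns, and is the only G gene among the 33. It lies on 3R from 19643018 to 19644386 on the minus strand. It had 129, 131, 129 and 131 CPM in kdm5[140] libraries, against 148, 178, 178 and 165 CPM in wild-type libraries. The kdm5[140] libraries were all lower and lay close together (130 ± 1.29 CPM), whereas wild type was more spread (167 ± 14.3 CPM; SD, n = 4 each). Vha13 fell by 0.36 on the log2 scale (standard error 0.07, edgeR FDR = 0.0033), to 0.777 of the wild-type level. The FDR went above 0.01 without kdm5[140] replicate 1, 2 or 4 or wild-type replicate 2, 3 or 4, to at most 0.0136, with log2 fold changes from -0.42 to -0.34 over all 8 fits. With an offset for gene length the log2 fold change shrank to -0.26 (edgeR FDR = 0.00682).

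The other stalk genes were not called. Vha26, the only E gene among the 33, had 273, 301, 307 and 298 CPM in kdm5[140] libraries, against 302, 325, 327 and 336 CPM in wild-type libraries. The groups overlapped, and the log2 fold change was -0.13 (standard error 0.06, FDR = 0.151). Vha44, the C gene, had 103, 115, 114 and 110 CPM in kdm5[140] libraries, against 102, 108, 102 and 108 CPM in wild-type libraries (log2 fold change 0.07, FDR = 0.365). Its exons overlap those of Hmgs, which had 14286 to 15900 counts per kdm5[140] library and 14514 to 19374 per wild-type library, by 148 bases on the opposite strand, so the count of Vha44 is uncertain.

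In the catalytic ring neither subunit was called. Vha68-2, the main A gene, which binds and hydrolyses ATP, had 319, 326, 344 and 342 CPM in kdm5[140] libraries, against 349, 369, 343 and 369 CPM in wild-type libraries. Its log2 fold change of -0.10 had a 95% interval from -0.25 to 0.04. Vha55, the B gene, had 274, 303, 307 and 309 CPM in kdm5[140] libraries, against 288, 327, 298 and 321 CPM in wild-type libraries (log2 fold change -0.05, interval -0.21 to 0.12). Vha68-1, another A gene, averaged 22.2 ± 5.03 CPM in kdm5[140] and 18.5 ± 3.12 CPM in wild type (SD, n = 4 each; log2 fold change 0.26, interval -0.18 to 0.70). Its ratio to Vha68-2 overlapped between genotypes (difference in log2 ratio 0.35, exact permutation p = 0.2, adjusted p = 0.381).

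The central shaft and the regulator were likewise not called. Vha36-1, the main D gene, had 114, 118, 138 and 123 CPM in kdm5[140] libraries, against 134, 139, 142 and 140 CPM in wild-type libraries. Replicate 3 of kdm5[140] lay among the wild-type values and the other 3 below them, and the log2 fold change was -0.17 (standard error 0.07, FDR = 0.083). Vha14-1, the main F gene, had 64.9, 68.0, 74.9 and 72.8 CPM in kdm5[140] libraries, against 59.6, 69.1, 70.8 and 69.3 CPM in wild-type libraries. Its log2 fold change was 0.06 (FDR = 0.567), but 0.24 (FDR = 0.00939) with an offset for gene length. VhaSFD, the H gene, had 195, 208, 224 and 192 CPM in kdm5[140] libraries, against 193, 207, 198 and 198 CPM in wild-type libraries (log2 fold change 0.04, FDR = 0.671).

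The proton-carrying ring was led by Vha16-1, the main c gene. It had 703, 742, 802 and 794 CPM in kdm5[140] libraries, against 855, 868, 846 and 834 CPM in wild-type libraries. All kdm5[140] libraries were below all wild-type libraries, but the log2 fold change of -0.16 (standard error 0.06) did not pass the threshold with edgeR (FDR = 0.0851) or DESeq2 (FDR = 0.0195). The separation rests on TMM. As a share of all raw counts, kdm5[140] replicate 4 (15957 of 18816043) lay above wild-type replicate 1 (15584 of 19494692). VhaPPA1-1, the main c" gene, had 126, 142, 148 and 142 CPM in kdm5[140] libraries, against 137, 152, 155 and 149 CPM in wild-type libraries (log2 fold change -0.09, FDR = 0.337). VhaAC39-1, the main d gene, had 94.2, 117, 121 and 112 CPM in kdm5[140] libraries, against 112, 120, 116 and 112 CPM in wild-type libraries. Its low value came from replicate 1 of kdm5[140] alone, and the log2 fold change was -0.05 (FDR = 0.667).

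Subunit e was the only one with 3 tested genes. VhaM9.7-b, the highest, had 75.9, 75.0, 87.0 and 81.7 CPM in kdm5[140] libraries, against 84.0, 84.7, 95.4 and 80.6 CPM in wild-type libraries (log2 fold change -0.11, FDR = 0.297). It supplied 71.3% of the summed subunit e level in CPM per kilobase in both genotypes. VhaM9.7-c averaged 18.0 ± 2.37 CPM in kdm5[140] and 20.5 ± 2.58 CPM in wild type, and VhaM9.7-a averaged 3.61 ± 0.813 CPM in kdm5[140] and 3.07 ± 0.837 CPM in wild type (SD, n = 4 each). Both ratios to VhaM9.7-b overlapped between genotypes. The difference in log2 ratio was -0.08 for VhaM9.7-c (exact permutation p = 0.629) and 0.37 for VhaM9.7-a (exact permutation p = 0.286, adjusted p = 0.381).

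Both accessory genes encode membrane proteins that help the pump assemble. VhaAC45 had 172, 194, 204 and 201 CPM in kdm5[140] libraries, against 205, 215, 201 and 202 CPM in wild-type libraries (log2 fold change -0.09, FDR = 0.319). VhaM8.9, the prorenin receptor homologue named ATP6AP2 in the reference, had 170, 181, 200 and 188 CPM in kdm5[140] libraries, against 179, 214, 184 and 181 CPM in wild-type libraries (log2 fold change -0.04, FDR = 0.746). Both pairs of groups overlapped.

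**Figure D3:**
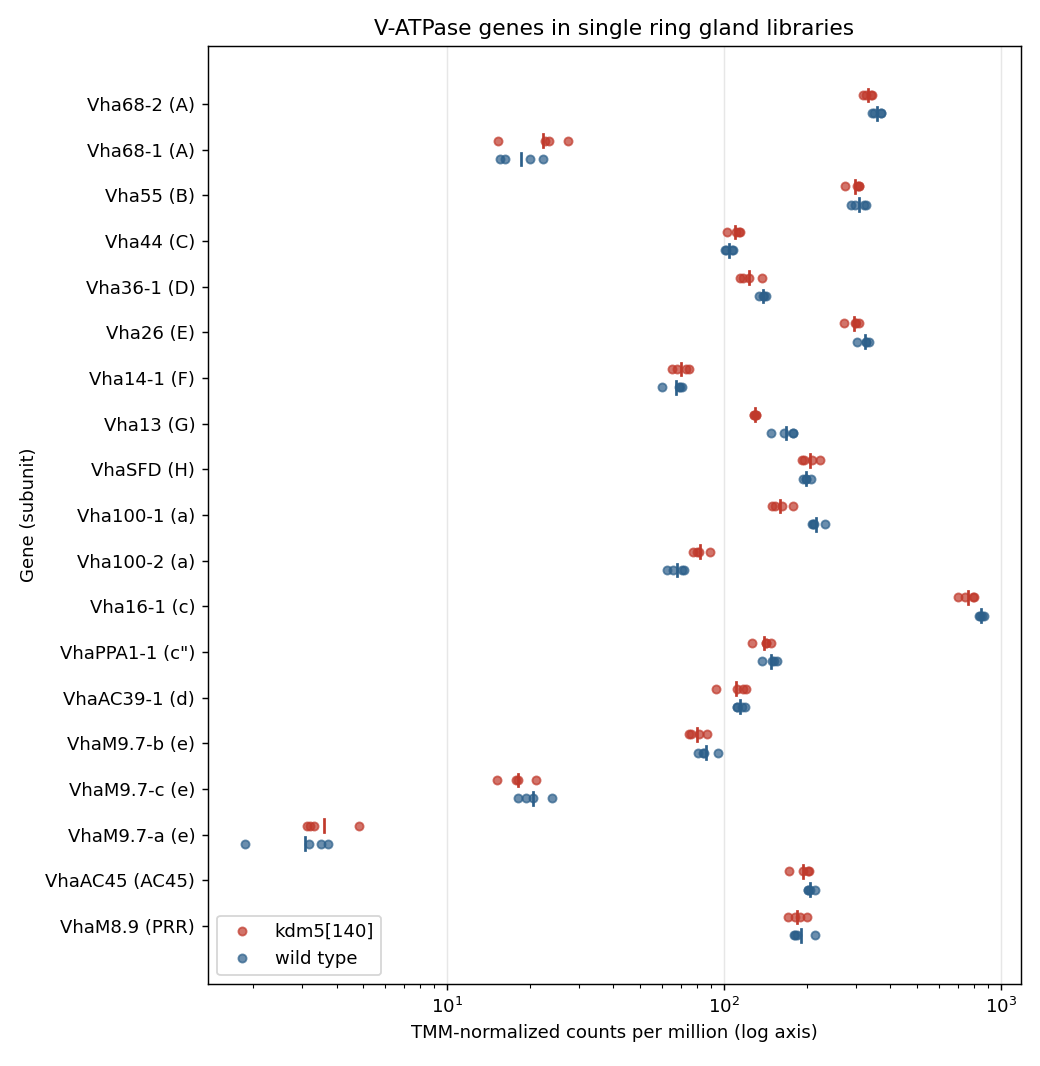
TMM-normalized CPM of the 19 tested V-ATPase genes on a log axis, with 1 point per library (red above for kdm5[140], blue below for wild type) and a short line at each mean. The groups overlap in 15 genes, and the means span from 3.61 CPM in kdm5[140] and 3.07 CPM in wild type for VhaM9.7-a to 760 CPM in kdm5[140] and 851 CPM in wild type for Vha16-1.

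Across the genes, the summed level of all 33 was 3115 to 3467 CPM in kdm5[140] and 3486 to 3698 CPM in wild type, without overlap. As a share of all raw counts, which does not use TMM, the same genes took 0.329% to 0.363% in kdm5[140] and 0.326% to 0.362% in wild type, and these ranges overlapped. The sums are given as a description, with no test.

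Levels can be compared between genes only per length, here as TMM-normalized CPM per kilobase of the gene length in the table. Vha16-1 was highest in both genotypes, at 247 ± 15.1 in kdm5[140] and 276 ± 4.61 in wild type (SD, n = 4 each). It ranked above 97.3% of all genes tested, although only 477 of its 3077 bases are coding, which weighs on such a comparison. Vha13 came next at 138 ± 1.37 in kdm5[140] and 177 ± 15.2 in wild type, apart from its neighbours in the wild-type order. Vha36-1, Vha68-2 and VhaM8.9 followed at 131, 130 and 129 in wild type with overlapping libraries, then Vha55, Vha26, VhaPPA1-1, VhaAC45 and Vha14-1 between 111 and 102, each overlapping the next. VhaM9.7-b, VhaSFD, Vha100-1 and VhaAC39-1 lay between 70.9 and 64.1 in wild type, and Vha44, VhaM9.7-c and Vha100-2 between 26.0 and 21.0. Vha68-1 at 6.91 and VhaM9.7-a at 4.33 closed the order and were the only 2 of the 19 below the median of all genes tested. Between genotypes no gene moved by more than 3 places, which Vha14-1 did with rank 7 in kdm5[140] and rank 10 in wild type.

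The 33 genes fall into 15 classes of subunit or accessory protein, all of which had a tested gene, and 12 of the 15 had exactly 1. Of the 8 classes with more than 1 gene, most drew nearly all of their level from 1 of them. In subunit D the main gene took 99.7% of the summed level in kdm5[140] and 99.9% in wild type. In subunit A it took 93.5% in kdm5[140] and 94.9% in wild type. Only in subunits a and e did the leading gene take less than in subunit A.

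The 33 genes lie on every major arm, with 12 on 3R, 8 on 2R, 6 on 2L, 5 on 3L and 2 on X. Several paralogues are neighbours on the same strand. Vha68-2 and Vha68-3 are 178 bases apart on 2L, Vha100-4 and Vha100-2 are 517 bases apart on 3R, Vha16-3 and Vha16-2 are 985 bases apart on 3L, and VhaPPA1-2 and VhaPPA1-1 are 2052 bases apart on 3R. In the pairs with Vha68-2, Vha100-2 and VhaPPA1-1 the neighbour was under the filter, so adjacent paralogues stood at very different levels. Reads of near-identical paralogues may be split or dropped in counting, which was not tested.

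The 14 genes under the filter are all further genes for subunits that also have a tested gene. Some of them, such as Vha100-5, Vha100-4, Vha16-2 and VhaPPA1-2, have exons that overlap a gene on the opposite strand, so their few counts are uncertain. Vha16-2 and Vha16-4, both c genes, had no count in any library, which allows at most 3 counts in each, for counting error only. Vha16-3, another c gene, had 2 counts, both in kdm5[140] replicate 4. Of the 14 genes, 9 had their highest count in that one library, the one with the most genes detected, and 12 had a count there. How often other genes under the filter had their highest count there was not counted.

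**Figure D4:**
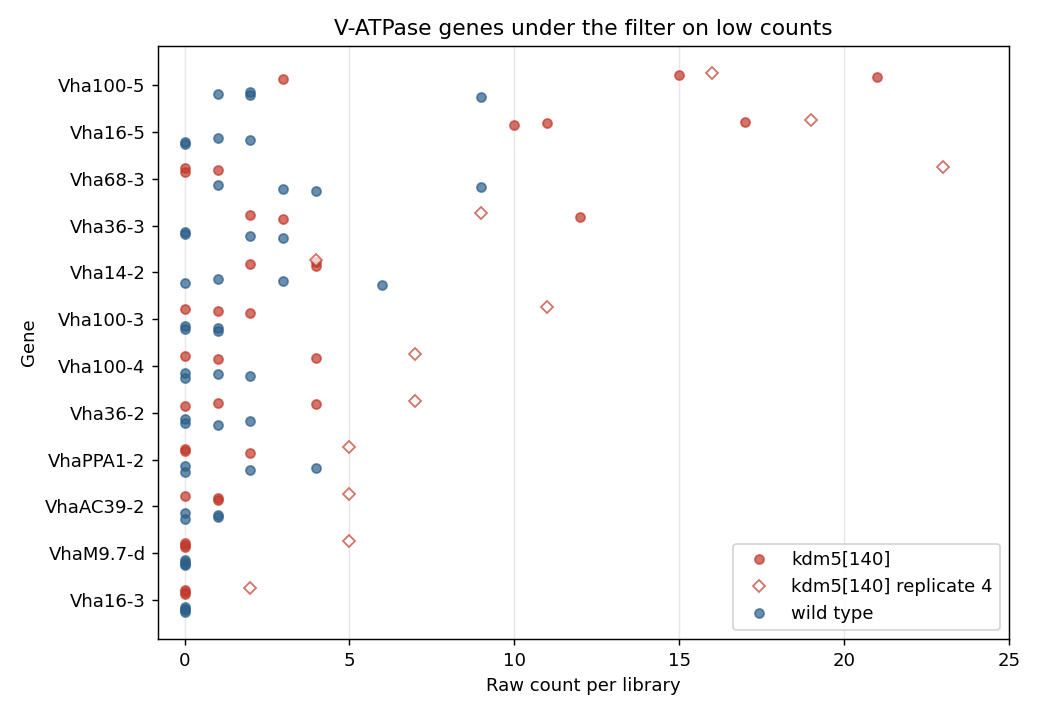
Raw counts of the 12 V-ATPase genes that had at least 1 count but did not pass the filter, with 1 point per library and open diamonds for kdm5[140] replicate 4. That library holds the highest count of 9 of these genes, Vha16-5 among them, which has 10 to 19 counts in every kdm5[140] library and 0 to 2 in wild type.

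Vha16-5, a c gene on 2L from 10736319 to 10737043 on the minus strand, had more counts in every kdm5[140] library than in any wild-type library. It had 10, 11, 17 and 19 counts in kdm5[140] libraries, against 0, 0, 2 and 1 counts in wild-type libraries. Its kdm5[140] mean of 0.773 ± 0.252 CPM (SD, n = 4) was 4.56 times the floor of 3 counts per wild-type library, which averaged 0.169 CPM. The lowest kdm5[140] library, replicate 1, had 0.511 CPM, so 4.56 is not a lower bound. Vha16-5 was not in the edgeR fit with the filter. Without the filter its edgeR FDR was 0.00619, in a fit that called 4.68% of 14672 genes higher, and DESeq2 gave 0.00063. Per kilobase its level in kdm5[140] was 1.07 CPM, against 247 CPM for Vha16-1 in the same libraries.

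Vha100-5, a further a gene, had 3, 21, 15 and 16 counts in kdm5[140] libraries, against 9, 2, 1 and 2 counts in wild-type libraries. The groups overlapped, and the FDR was 0.124 with edgeR without the filter and 0.0878 with DESeq2. Vha68-3, an A gene, had 0, 1, 0 and 23 counts in kdm5[140] libraries, against 4, 3, 9 and 1 counts in wild-type libraries, so that a single library held most of its kdm5[140] counts. Vha36-3 reached 12 counts and Vha100-3 11 in 1 kdm5[140] library each, against at most 3 and 1 in wild type. The remaining genes, Vha14-2, Vha100-4, Vha36-2, VhaPPA1-2, VhaAC39-2 and VhaM9.7-d, had at most 7 counts in any library.

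Other genes of the pathway were read from lists chosen for what the genes do. None of the 6 genes for assembly and regulation of the pump passed the threshold, and their median log2 fold change was 0.05. Rbcn-3A, a rabconnectin that helps V1 join V0, averaged 187 CPM in kdm5[140] and 182 CPM in wild type (log2 fold change 0.03, FDR = 0.819). mtd, a TLDc-domain protein whose mammalian relatives bind the pump, averaged 147 ± 4.92 CPM in kdm5[140] and 136 ± 4.09 CPM in wild type (SD, n = 4 each; log2 fold change 0.11, FDR = 0.161). The 6 log2 fold changes ran from -0.29 (FDR = 0.0401) to 0.11. In the gene at -0.29 all kdm5[140] libraries lay below all wild-type libraries, against 17.6% of all genes tested. In mtd they lay above, against 15.6%.

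Of 17 genes listed for lysosomal hydrolases and membrane proteins 14 were tested, of which 2 were lower and 1 higher, with a median of -0.11. CG31414, named Gba1b in the reference and encoding a glucocerebrosidase, had 8.74, 5.90, 6.65 and 6.47 CPM in kdm5[140] libraries, against 17.8, 20.6, 22.8 and 19.8 CPM in wild-type libraries. It fell by 1.54 on the log2 scale (standard error 0.14, FDR = 5.77e-05). spin, a lysosomal membrane transporter, had 182, 182, 195 and 177 CPM in kdm5[140] libraries, against 239, 278, 278 and 312 CPM in wild-type libraries (log2 fold change -0.59, FDR = 0.000693). CtsB1, a cathepsin protease, was higher, with 448, 435, 501 and 540 CPM in kdm5[140] libraries, against 339, 355, 328 and 321 CPM in wild-type libraries (log2 fold change 0.52, FDR = 0.00126). Over all genes tested 17.5% were called in either direction.

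Chloride and sodium-proton exchangers, which use or balance the proton gradient, had 1 of 7 genes called. Over all genes tested 17.5% were called in either direction and 7.91% were higher. The median log2 fold change of the 7 was 0.42, with 5 positive and 2 negative. In 2 of the 7, Nhe3 and a gene at 0.26 (FDR = 0.0133), all kdm5[140] libraries lay above all wild-type libraries, against 15.6% of all genes tested. Nhe3, a sodium-proton exchanger, had 68.6, 77.5, 67.2 and 83.9 CPM in kdm5[140] libraries, against 48.0, 52.0, 50.3 and 53.6 CPM in wild-type libraries (log2 fold change 0.54, FDR = 0.00104). The 5 vesicular neurotransmitter transporters, which load synaptic vesicles with the help of the gradient, had positive log2 fold changes from 0.29 to 0.41 with none past the threshold. Over all genes tested 4896 of 9317 were positive. The summed level of these transporters was 22.0 to 43.2 CPM in kdm5[140] and 14.6 to 36.4 CPM in wild type. Mitochondrial ATP synthase is the related rotary enzyme that runs in the direction of ATP synthesis. All 5 genes with symbols beginning ATPsyn (ATPsyn-beta, ATPsyn-gamma, ATPsyn-b, ATPsyn-d and ATPsyn-Cf6) were lower, with a median of -0.46. Over all genes tested 9.62% were lower. In all 5 every kdm5[140] library lay below every wild-type library, against 17.6% of all genes tested. With kdm5[140] replicate 1, 2 or 4 or wild-type replicate 2, 3 or 4 left out, 3 of these 5 passed the threshold. Genes of the enzyme under other symbols were not read, and the difference from the Vha genes was not tested.

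**Figure D5:**
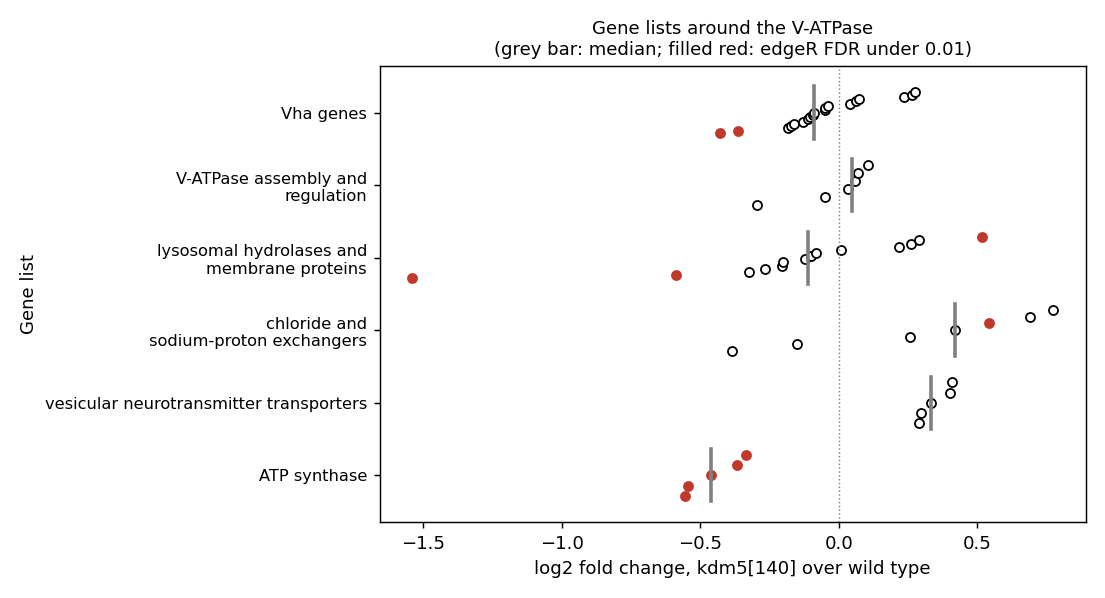
Log2 fold change (kdm5[140] over wild type) of each tested gene on the x axis, by gene list, with filled red points for an FDR under 0.01 and a grey line at each list's median. The Vha genes have 2 of 19 called and a median of -0.09. The ATP synthase list holds the 5 genes with symbols beginning ATPsyn, all lower with a median of -0.46.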

How the data were processed

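Ring gland libraries were prepared from polyadenylated RNA and sequenced in pairs. The authors aligned reads to dm6 with HISAT2 2.0.5, named StringTie 1.3.3b for assembly, counted fragments per gene with featureCounts 1.5.0-p3 and deposited the whole-number counts without normalization. The strand setting and the annotation release are not given in the sources used here. The gene length of the deposited table was used to scale levels per kilobase. Deposited FPKM (8 columns), genotype means and the authors' own DESeq2 1.20.0 fold changes and p-values were not used.

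Counts were compared with edgeR 4.0.16 in R 4.3.3 (TMM, filterByExpr with a minimum count of 10, robust quasi-likelihood test) over all 9317 genes that passed the filter, with Benjamini-Hochberg adjustment and an FDR threshold of 0.01, as in the study. Standard errors came from the F statistic and 95% intervals from the t distribution. Paralogue ratios were compared by a two-sided exact permutation test. DESeq2 1.42.0 and limma 3.58.1 (voom) were alternatives, beside other normalizations and filters, a block for the replicate number, an offset for gene length and each library left out. Libraries of 1 genotype differed by more than sampling noise. Floors of 3 counts cover counting error only. The script was tested on simulated data. Figures were drawn with matplotlib 3.10.9.

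Every Vha gene was accounted for. Per-library values were given for genes past the threshold, for genes whose groups do not overlap and for the highest gene of each subunit. In other lists, genes past the threshold were named, otherwise at most the 3 highest. The members and lists were chosen with earlier results of these data known. Names and positions were checked against the reference annotation, in which all 33 had the same coordinates. Sequences were not used here.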

Additional observations from a re-analysis of the deposited data

Results flagged for a closer look

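In each of the 2 genotypes the values of the Vha genes were checked for 1 library lying far from the other 3, and 5 of 56 groups held one. The rule picks about 1 in 20 groups by chance only for continuous, normally spread values. Genes with few counts, which were also checked, do not meet this, so no comparison with chance is drawn. VhaM8.9 had 214 CPM in wild-type replicate 2, against 179 to 184 CPM in the other wild-type libraries. Vha14-1 had 59.6 CPM in wild-type replicate 1, against 69.1 to 70.8 CPM in the others. VhaM9.7-a had 4.83 CPM in kdm5[140] replicate 4, against 3.12 to 3.31 CPM in the others. Vha100-5, under the filter on low counts, had 0.494 CPM in wild-type replicate 1, against 0.0588 to 0.119 CPM in the others. Vha68-3, also under the filter, had 1.15 CPM in kdm5[140] replicate 4, against 0 to 0.0552 CPM in the others.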

How the results depend on the processing

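Neither called Vha gene changed direction under any alternative run, and of the tested Vha genes not called, VhaSFD, VhaM8.9 and VhaAC39-1 crossed 0 with 1 library left out, at most to 0.02, as did VhaM8.9 with the gene length offset (0.01) and the VhaM9.7-c ratio (0.02 without wild-type replicate 1). Over single Vha genes, 294 of the alternative fits gave the same call, 4 gained a call and 6 lost one, the last all for Vha13 with 1 library left out. Among the 19 tested Vha genes, the number lower was 1 to 2 with each library left out, against 2 with all libraries. The number higher was 1, against 0, with DESeq2, at an FDR threshold of 0.05 and with the replicate block (Vha100-2 in each, block FDR = 0.0082), and 1 with the gene length offset (Vha14-1). Vha16-5, not among the 19, was also called higher with DESeq2 and without the filter. Alternatives for single genes were run for the tested Vha genes only. In the other 4 function lists together, 2 genes were lower, against 5 at an FDR threshold of 0.05 and 4 with the gene length offset, and 2 were higher, against 4 with DESeq2, at the threshold of 0.05 and with the length offset. Of the 5 genes with symbols beginning ATPsyn, 3 to 5 were lower with each library left out. The cause of these differences was not tested. Over all genes, 896 were lower and 737 higher. Without wild-type replicate 1, 2, 3 or 4 these were 957 and 870, 554 and 442, 537 and 423, and 645 and 559. Without kdm5[140] replicate 1, 2, 3 or 4 they were 556 and 485, 564 and 472, 895 and 629, and 610 and 530. With the gene length offset they were 1021 and 854, and at an FDR threshold of 0.05 they were 1536 and 1339. For paralogue ratios the smallest exact p of 0.0286 adjusts to 0.114 for 1 ratio alone, and the exact sign-flip test for the block cannot go below p = 0.125, so that none was called under the alternatives says nothing about stability. Libraries with the same replicate number correlated in their deviations from the group means at 0.0996, 0.109, 0.216 and -0.118. Libraries of the 2 genotypes with different numbers gave -0.251 to 0.186. So few correlations do not settle whether the numbers pair the libraries. Depth limits the 14 genes under the filter.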

Other observations

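CG31030, which the reference names as a relative of VhaAC45 but whose symbol in the table does not begin with Vha, had 14.9, 18.1, 9.79 and 11.6 CPM in kdm5[140] libraries, against 7.19, 9.89, 8.82 and 10.5 CPM in wild-type libraries. The groups overlapped, and its log2 fold change of 0.58 (standard error 0.20) did not pass the threshold (edgeR FDR = 0.054).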
